A study of Arabidopsis thaliana with 27 samples.

Results

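The genes described here are 10 core components of light signalling in Arabidopsis thaliana: the phytochrome photoreceptors PHYA (AT1G09570) and PHYB (AT2G18790), the ubiquitin ligase gene COP1 (AT2G32950), the phytochrome-interacting factors PIF1 (AT2G20180), PIF3 (AT1G09530), PIF4 (AT2G43010), PIF5 (AT3G59060) and PIF7 (AT5G61270), and the bZIP factors HY5 (AT5G11260) and HYH (AT3G17609). They were chosen by locus identifier, with earlier results of these data known, and all 10 were found among the 37899 nuclear loci of the gene table. A GFP peak was assigned to a gene when at least 1 bp of it fell in the gene body or within 1000 bp of an end, and H3K27me3 was measured as the percentage of the gene body covered by peaks.

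Phytochromes are red and far-red light receptors that, once activated by light, move into the nucleus and bind PIFs, bHLH transcription factors that promote growth in darkness and shade, and lead to their degradation or inactivation. COP1 marks HY5 and other light-promoting factors for degradation in the dark, and in the light HY5 and its relative HYH accumulate and drive seedling photomorphogenesis. BRM (BRAHMA) is the motor subunit of a SWI/SNF complex, which shifts nucleosomes, and REF6 is a Jumonji demethylase that removes H3K27me3, the histone mark that Polycomb group proteins place on silent genes.

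The series mapped both proteins and the mark by chromatin immunoprecipitation and sequencing in 14-day-old seedlings grown on 1/2MS medium at 22 °C under 16 h of light and 8 h of dark. BRM-GFP and REF6-GFP were each pulled down with an anti-GFP antibody in 1 library whose label names no further genotype (the first libraries). Later GFP libraries covered REF6-GFP in the brm-1 mutant (brm, 2 libraries) and in wild type (2), and BRM-GFP in the ref6-1 mutant (ref6, 2) and in wild type (1). H3K27me3 was mapped without a tagged protein in the double mutant brm-1 ref6-1 (brm ref6), in ref6, in brm and in wild type (WT), with 2 libraries each. The wild-type background of the later GFP lines is taken from the series' design text. For 1 ref6 BRM-GFP library the label names a BRM-GFP transgene driven by the BRM promoter. The labels do not say whether the GFP lines also carried the untagged gene, or whether replicate libraries came from separate plantings, so the spread between them may be technical.

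The deposited lists give a position and a score for each peak, and the score expresses the authors' peak-calling p-value as −10 log10 p, with a minimum of 50 (p = 1e-05). Read depth is unknown, so a gene without a peak had no peak called, which is not the same as no binding. The libraries differed widely in yield. The first BRM-GFP list held 12230 peaks and the first REF6-GFP list 5413, whereas the 7 later GFP lists held 1466 to 4006. The H3K27me3 lists held 11132 to 13079 peaks, except for ref6 replicate 2 with 5582 peaks, which were wider (medians of 1575 bp there and 289.0 to 527.0 bp elsewhere). The REF6 gene itself carried a BRM-GFP peak in the later wild-type library (score 883) and none in either ref6 library, but a peak list cannot check a mutation directly.

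In the first libraries, BRM-GFP peaks lay at all 10 light-signalling genes and REF6-GFP peaks at 8 of them. The background share was 38.1% of all nuclear loci for BRM-GFP and 25.4% for REF6-GFP, or 44.1% and 30.1% of the 27444 protein-coding loci. The 8 genes with REF6-GFP also had BRM-GFP, against 14.0% of all loci and 16.9% of protein-coding loci with both. PHYB and COP1 had BRM-GFP alone. There was 1 library per protein, so these shares have no replicate check. The genes were longer than most, with a median body of 2986 bp (range 867 to 5729 bp) against 2078 bp for protein-coding loci, and the part of gene length in the counts was not tested.

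**Figure D1:**
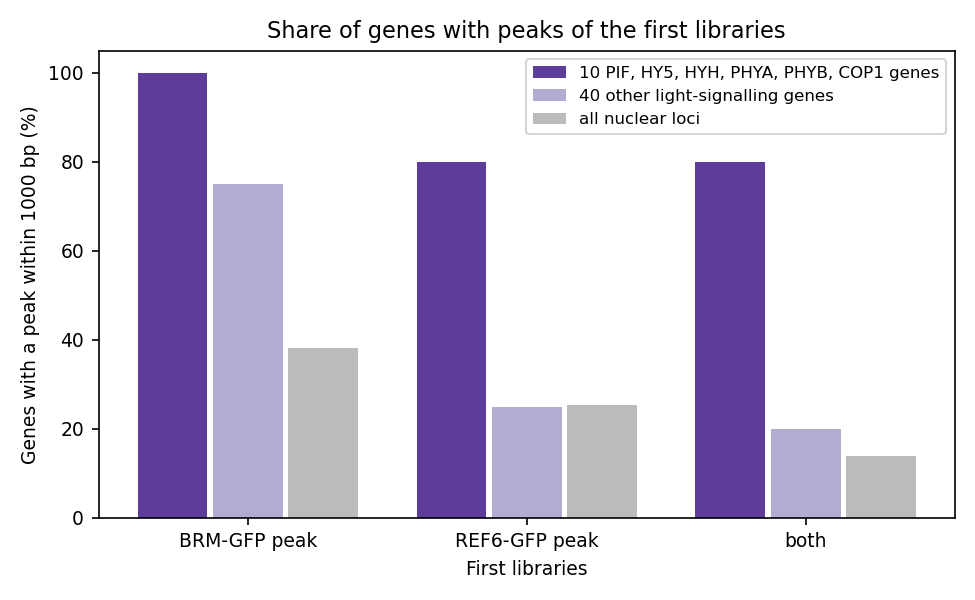
Share of genes (%, y axis) with a peak of the first BRM-GFP library, the first REF6-GFP library or both within 1000 bp, for the 10 genes described here, a list of 40 other light-signalling genes, and all 37899 nuclear loci. The bars of the 10 genes stand at 10, 8 and 8 of 10, and those of the 40 other genes at 30, 10 and 8 of 40.

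Among the photoreceptor genes, PHYA had the highest REF6-GFP score of the 10 genes, but the peak lay beside the gene. PHYA is the main receptor for far-red light. Its strongest REF6-GFP peak, chr1:3101526-3103207, scored 2042 and began 707 bp beyond the higher-coordinate end of PHYA, over the neighbouring locus AT1G09575. The strongest BRM-GFP peak, chr1:3101015-3103658, scored 1118 and contained that REF6-GFP peak whole. A second BRM-GFP peak, chr1:3093047-3094922 (score 1004), lay on the other side of PHYA over GLP5. The peaks that touched the PHYA body were weaker. They crossed its higher-coordinate end, at chr1:3100051-3100931 for BRM-GFP (score 305) and chr1:3100004-3101036 for REF6-GFP (score 175).

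PHYB, the main red-light receptor of light-grown plants, had a single BRM-GFP peak across its lower-coordinate end (chr2:8139369-8140127, score 310.2). COP1 likewise had a single BRM-GFP peak across its lower-coordinate end (chr2:13977584-13978105, score 153). No REF6-GFP peak was called within 1000 bp of either gene, nor within 3000 bp.

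The PIF genes spanned the whole range of top BRM-GFP scores seen at the 10 genes. PIF5, which acts with PIF4 in growth in shade, had the highest: chr3:21829903-21832565 scored 2744 and ranked 21st of 12230 peaks (top 0.172%). With a second peak at chr3:21827138-21829669 (score 1117), BRM-GFP covered both ends of the PIF5 body and also reached the neighbours PAO3 and AT3G59070. The REF6-GFP peak at PIF5 was in the lower part of its own list (chr3:21829947-21830882, score 98.7, top 74.5%). It lay wholly inside the stronger BRM-GFP peak.

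PIF7, a PIF with a central part in shade responses, had BRM-GFP and REF6-GFP peaks across its higher-coordinate end. They were chr5:24639847-24641035 for BRM-GFP (score 928) and chr5:24639385-24640991 for REF6-GFP (score 374), and 71.3% of the REF6-GFP peak was shared. PIF4, which also mediates growth in warmth, had its strongest BRM-GFP peak at the lower-coordinate end (chr2:17885560-17886789, score 902). Its REF6-GFP peak lay elsewhere, inside the gene (chr2:17887884-17888930, score 248), where a weaker BRM-GFP peak (chr2:17888355-17888857, score 148) covered 48.0% of it.

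PIF3, the founding member of the family, had a BRM-GFP peak inside the gene (chr1:3076380-3077042, score 363) that lay under a REF6-GFP peak (chr1:3076209-3077260, score 133). A second REF6-GFP peak at its higher-coordinate end (chr1:3078961-3080008, score 83.2) overlapped no BRM-GFP peak. PIF1, a repressor of seed germination in the dark, had the lowest top score in both lists among the genes with a peak. Its top BRM-GFP peak scored 80.8 and its REF6-GFP peak (chr2:8705155-8706148) scored 87.5.

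HY5 and HYH each carried peaks of both proteins over the gene body. HY5 had the highest REF6-GFP score of any peak touching a body of the 10 genes: chr5:3593479-3594788 scored 715 (top 22.6% of its list) and covered 75.3% of HY5. Its BRM-GFP peaks there were chr5:3593949-3594569 (score 235) and chr5:3594628-3595425 (score 324), in the top 33.5% and 23.3% of theirs. Both proteins also had a peak on the lower-coordinate side of HY5, over AT5G11250, with scores of 179.9 for BRM-GFP and 124 for REF6-GFP. HYH, the shortest of the 10 genes, was spanned whole by a REF6-GFP peak (chr3:6023393-6024866, score 113, top 69.9%). BRM-GFP covered its lower-coordinate end (chr3:6023399-6024318, score 381, top 18.8%). Scores from different lists are not on one scale, so each is read within its own list.

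**Figure D2:**
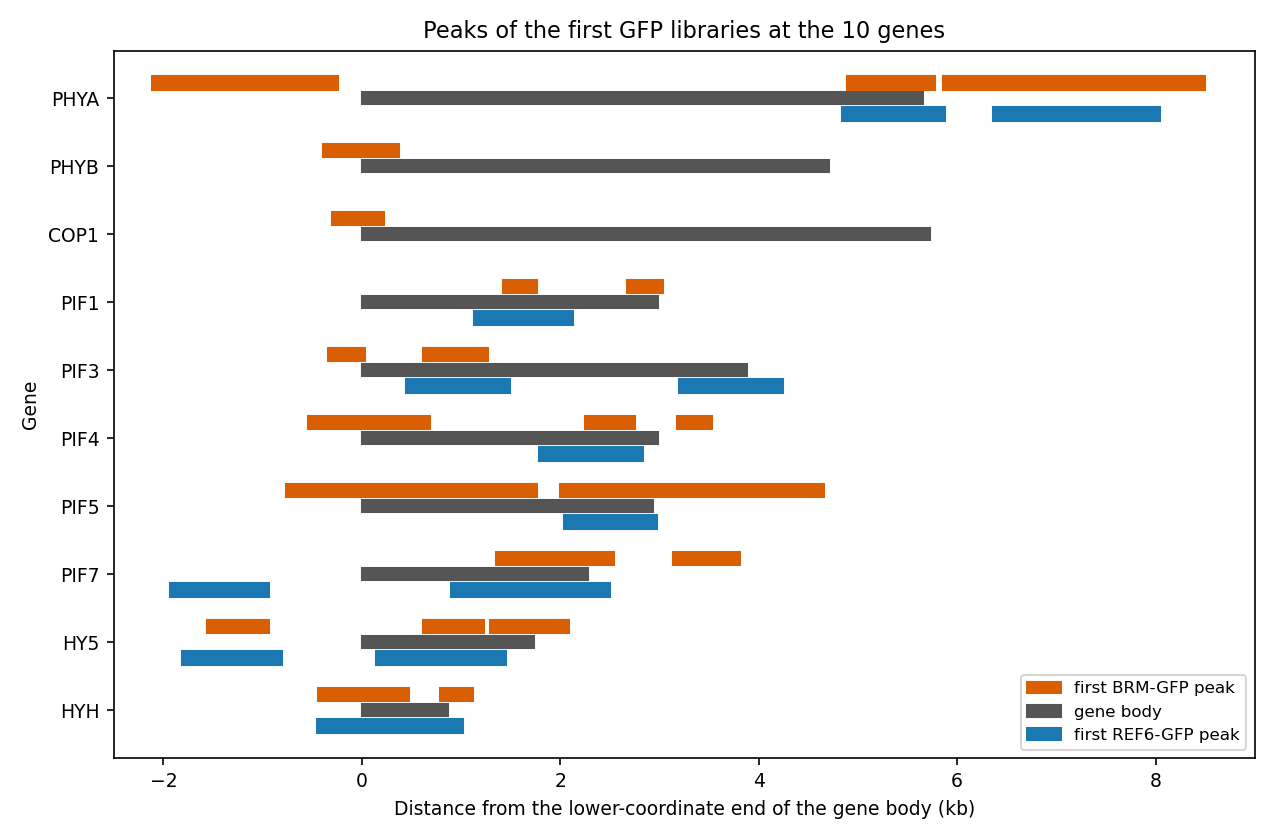
Peaks of the first BRM-GFP library (above each gene) and the first REF6-GFP library (below it) that came within 1000 bp of the 10 genes. The x axis is the distance in kb from the lower-coordinate end of each gene body (dark bar), and direction of transcription is not shown. Every gene has a BRM-GFP peak over at least 1 end, with a score under 100 at PIF1 and PIF3.

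The peaks were also sorted by whether they touched a body or crossed an end of the genes. Of the 21 BRM-GFP peaks at them, 16 touched a gene body and 12 crossed an end of it. Each of the 10 genes had a BRM-GFP peak crossing an end, against 24.4% of all loci, 29.1% of protein-coding loci and 64.0% of the loci with a first BRM-GFP peak. At PIF3 and PIF1 the only such peak was weak (scores 94.6 and 80.8), and at PIF3 it overlapped the body by 31 bp. With a minimum score of 100 neither gene would count. Of the 12 REF6-GFP peaks, 9 touched a body and 5 crossed an end, at 5 genes (background 16.2%). Those 5 were among the 8 genes with a REF6-GFP peak. Over all loci, 6125 of the 9645 with a first REF6-GFP peak had one crossing an end. The 5 of 8 is near that proportion, so it is not read as a trait of these genes. The gene table gives no strand, so the end crossed cannot be named as the start or the end of transcription. REF6-GFP peaks at these genes mostly overlapped BRM-GFP peaks: 10 of the 12 shared at least 1 bp with one. The exceptions were the PIF3 peak at the higher-coordinate end and a PIF7 peak 941 bp beyond the lower-coordinate end (chr5:24636560-24637550, score 121). In the other 10 the shared part was 34.7% (PIF1) to 100% (PIF5) of the REF6-GFP peak. Of the 5413 REF6-GFP peaks in the genome, 41.3% overlapped a BRM-GFP peak. That share includes loci without BRM-GFP, whereas all 10 genes had it, so the comparison is not like for like.

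In the later libraries most of these peaks were not called, in mutant and wild type alike. For REF6-GFP in brm against wild type, which asks whether REF6 occupancy needs BRM, brm replicate 1 had peaks at 2 of the 10 genes (background 13.3%) and brm replicate 2 at 0 (7.13%). Wild-type replicate 1 had a peak at 1 gene (11.2%) and wild-type replicate 2 at 0 (7.80%). The 2 brm peaks were at PIF3 (score 66.5) and PIF4 (score 64.3), and the wild-type peak was inside HY5 (score 117). A gain meant a peak in each brm library and in no wild-type one, and a loss the reverse. By these definitions 0 of 10 genes gained REF6-GFP in brm (0.272% of all loci) and 0 lost it (0.0976%). None of the 10 had a REF6-GFP peak in all 4 lists (4.66%). Each of the 3 peaks was called in 1 library of its pair, so the calls rest on single libraries: without brm replicate 2, PIF3 and PIF4 would count as 2 gains, and without wild-type replicate 2, HY5 would count as 1 loss. No difference between brm and wild type was detectable that held in both replicates.

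Peaks of the first REF6-GFP list were often not called later elsewhere too. Of the 9645 loci with a first REF6-GFP peak, 45.2% and 22.2% had one in brm replicates 1 and 2, and 35.3% and 23.8% in wild-type replicates 1 and 2. Stronger REF6-GFP peaks near 2 of the genes were called in every later REF6-GFP library. The peak beside PHYA over AT1G09575 scored 800.0 in brm replicate 1, against 548 and 366 in wild type, and began 1022 bp from PHYA in brm replicate 1, against 1098 and 1041 bp in wild type, just outside the 1000 bp bound. In brm replicate 2 there were 2 peaks in its place, 1 of score 58.6 at 1132 bp and 1 of score 159 at 1433 bp. The peak below HYH lay over IAA31, an Aux/IAA gene of auxin signalling, and scored 1292 and 272 in brm, against 933 and 471 in wild type. In the first REF6-GFP list this IAA31 peak ranked 16th of 5413 (score 3100), tied with the peak at the UV-B receptor gene UVR8. The value 3100 was also the maximum of some other lists, so this rank is not read as exact. Both neighbouring peaks were thus present in 2 of 2 brm and 2 of 2 wild-type libraries. Their scores come from lists of different yield, so differences in score are not read as differences in occupancy. Beside PIF4, a REF6-GFP peak over the polyamine oxidase gene PAO2 scored 118 and 97.2 in brm, against 96.5 in wild-type replicate 1 and no peak in wild-type replicate 2. It lay 2332 to 2430 bp from PIF4 in these libraries.

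For BRM-GFP in ref6 against wild type, which asks whether BRM occupancy needs REF6, PIF5 and PIF7 had peaks in every library. The top PIF5 peak scored 92.1 and 126 in the ref6 libraries, against 151 in wild type. At PIF7 the scores were 84.8 and 64.3 in ref6, against 102 in wild type. These 2 genes were the only ones of the 10 with a peak in all 3 lists, against 1.93% of all loci. The scores were low, and they are not on one scale between lists, so the differences are not read as changes in occupancy. With a minimum of 100 neither gene had a peak in all 3 lists, and PIF7 would count as a loss in ref6.

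PHYA had a weak BRM-GFP peak in the wild-type library (chr1:3100285-3100545, score 60.0) and none in either ref6 library, and was the 1 gene of 10 that met the definition of a loss (1.90% of all loci). With a minimum score of 100 PHYA would no longer count as one. None of the 10 gained a BRM-GFP peak in ref6 (1.37%). Within 3000 bp, PIF4 would count as 1 gain, through the PAO2 peak that scored 137 and 103 in ref6 and was not called in wild type, and HYH as a further loss, through an IAA31 peak of score 53.8 in wild type. By library, 2 genes had a peak in ref6 replicate 1 (background 5.73%), 2 in ref6 replicate 2 (6.07%) and 3 in wild type (4.74%). Wild type had 1 library, so no test was possible, and the PHYA peak stood close to the list minimum of 50. The other 7 genes had no BRM-GFP peak in any of the 3 lists, although all had one in the first list. Of the 14424 loci with a first BRM-GFP peak, 10.8% and 12.3% had one in the ref6 libraries and 10.2% in wild type.

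Every one of the 14 later peaks at these genes overlapped a peak of the first list of the same protein, so the later lists added no site. PIF5 and PIF7 had a peak in 5 of the 9 GFP lists (a share of 6.86% of all loci had 5 or more). PHYA, PIF3, PIF4 and HY5 had one in 3 lists, PIF1 and HYH in 2, and PHYB and COP1 in 1. At 4 genes (PHYB, COP1, PIF1 and HYH) no later list had a peak.

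**Figure D3:**
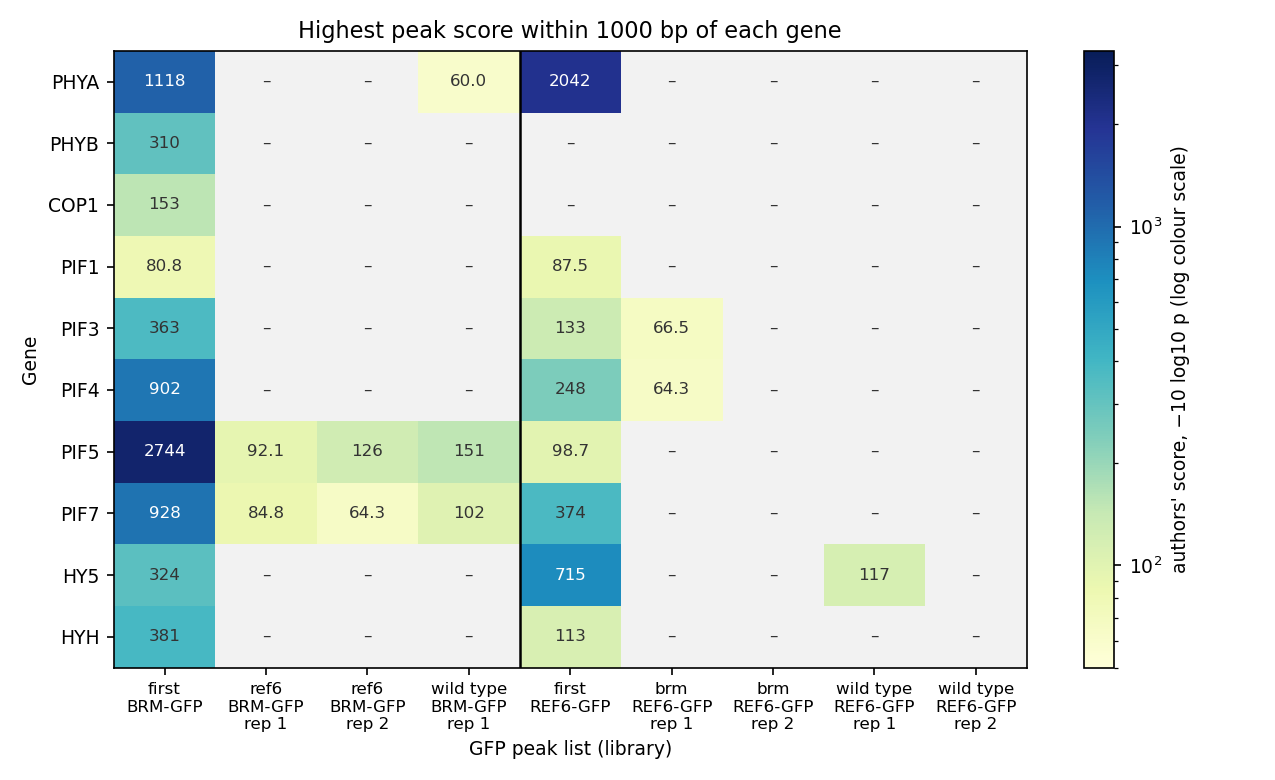
Highest authors' score (−10 log10 p, log colour scale) of a peak within 1000 bp of each gene (rows) in each of the 9 GFP lists (columns), with the mutant libraries left of wild type and a dash where no peak was called. Scores in the 2 first libraries reach 2744 and 2042, and no score in the 7 later lists exceeds 151. The lists differ in yield, and their scores are not on one scale.

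No H3K27me3 peak was called on the body of any of the 10 genes. No peak touched any of them in brm ref6, ref6, brm or WT, so coverage was 0% in each of the 8 libraries. Over all loci, 23.6% had some coverage in at least 1 library, as did 26.9% of protein-coding loci, 22.7% of loci with a first REF6-GFP peak and 15.8% of loci with a first BRM-GFP peak. All 10 genes had a first BRM-GFP peak, and 0 of 10 is not far from that last share. The mark was measurable in the same lists: the Polycomb targets AG, STM, WUS, FLC and LEC2 were at least 50% covered in both WT libraries, and the active genes ACT2, UBQ10, GAPC1 and EF1A had 0% in all 8 libraries.

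No gene body of the 10 gained the mark in a mutant in these lists. With a gene called marked at 50% coverage, 0 of 10 gained the mark in both libraries of brm ref6 (1.62% of all loci), ref6 (1.12%) or brm (1.34%). With 0% coverage in WT none of the 10 could lose it, and over all loci the shares lost were 0.575% in brm ref6, 0.372% in ref6 and 0.0475% in brm. At loci with a first REF6-GFP peak the share that gained the mark in ref6 was 2.84%, and 6.11% gained any coverage. With gains this rare, 0 of 10 is near the background and says little about the 10 genes as a set.

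The surroundings of 3 genes are described next, starting with PIF3. It was the 1 gene of 10 with an H3K27me3 peak within 1000 bp, on its higher-coordinate side, in all 8 libraries (14.2% of all loci; 35.0% had one in any library). The nearest peak began 312 and 514 bp from PIF3 in brm ref6, 527 and 89 bp in ref6, 234 and 465 bp in brm, and 236 and 304 bp in WT. Over the gene body plus 1000 bp on either side, coverage was 9.98 ± 2.43% in brm ref6, 11.8 ± 5.27% in ref6, 11.1 ± 2.76% in brm and 11.0 ± 1.73% in WT (mean ± SD, n = 2 each). Coverage overlapped between each mutant and WT. The distances overlapped for ref6 and brm, while those in brm ref6 were both larger than those in WT (exact two-sided permutation p = 0.333, the smallest that 2 against 2 libraries can give).

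At HYH the nearest H3K27me3 peak lay 2223 and 2573 bp away in brm ref6 and 2899 and 2017 bp away in ref6. In brm it was 11783 and 11818 bp away, and in WT 11866 and 11867 bp. HYH thus had a peak within 3000 bp in the 4 libraries that carry the ref6 mutation and in none of the other 4, a pattern shared by 1.96% of all loci. Set against WT alone, 4.79% of all loci gained a peak within 3000 bp in brm ref6 and 3.33% in ref6. In ref6 replicate 1, which lacks the wide peaks of replicate 2, the distance was 2899 bp, so the nearer position was not confined to the wide-peak library. Peaks in these 4 libraries lay over IAA31, although in brm ref6 replicate 1 the nearest one lay between IAA31 and HYH and the one over IAA31 began at 2715 bp. The IAA31 body was covered to 81.3% and 68.4% in brm ref6, 47.5% and 100% in ref6, 0% in both brm libraries and 0% in both WT libraries. The HYH distances in brm ref6, ref6 and brm each did not overlap those in WT. The exact two-sided permutation p was 0.333 for each, the smallest that 2 against 2 libraries can give. It was thus the same for brm, whose mean was 11800.5 bp against 11866 bp in WT, and does not set the genotypes with the ref6 mutation apart. IAA31 is the gene that carried the strong REF6-GFP peak described above. HYH itself, 867 bp long and spanned by a weaker REF6-GFP peak, had no H3K27me3 peak called on its body.

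PIF5 had its nearest peak farther away in the genotypes with the ref6 mutation. This was not the exact reverse of HYH, since in brm replicate 2 the nearest peak also lay outside 3000 bp. Its nearest H3K27me3 peak was 8217 and 18581 bp away in brm ref6 and 18351 and 8117 bp in ref6, but 2778 and 3147 bp in brm and 2916 and 2625 bp in WT. The nearer peaks lay over the neighbour AT3G59070, which was covered to 0% in both brm ref6 and both ref6 libraries, 33.6% and 24.7% in brm, and 33.6% and 34.7% in WT. Peaks over it scored 248 and 239 in brm and 68.3 to 151 in WT. PIF5 distances in brm ref6 or ref6 did not overlap those in WT (exact two-sided permutation p = 0.333 for each). A loss of any peak within 3000 bp against WT was seen at 1.60% of all loci in brm ref6 and 2.71% in ref6. AT3G59070 also lies in part under the strongest BRM-GFP peak of PIF5.

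**Figure D4:**
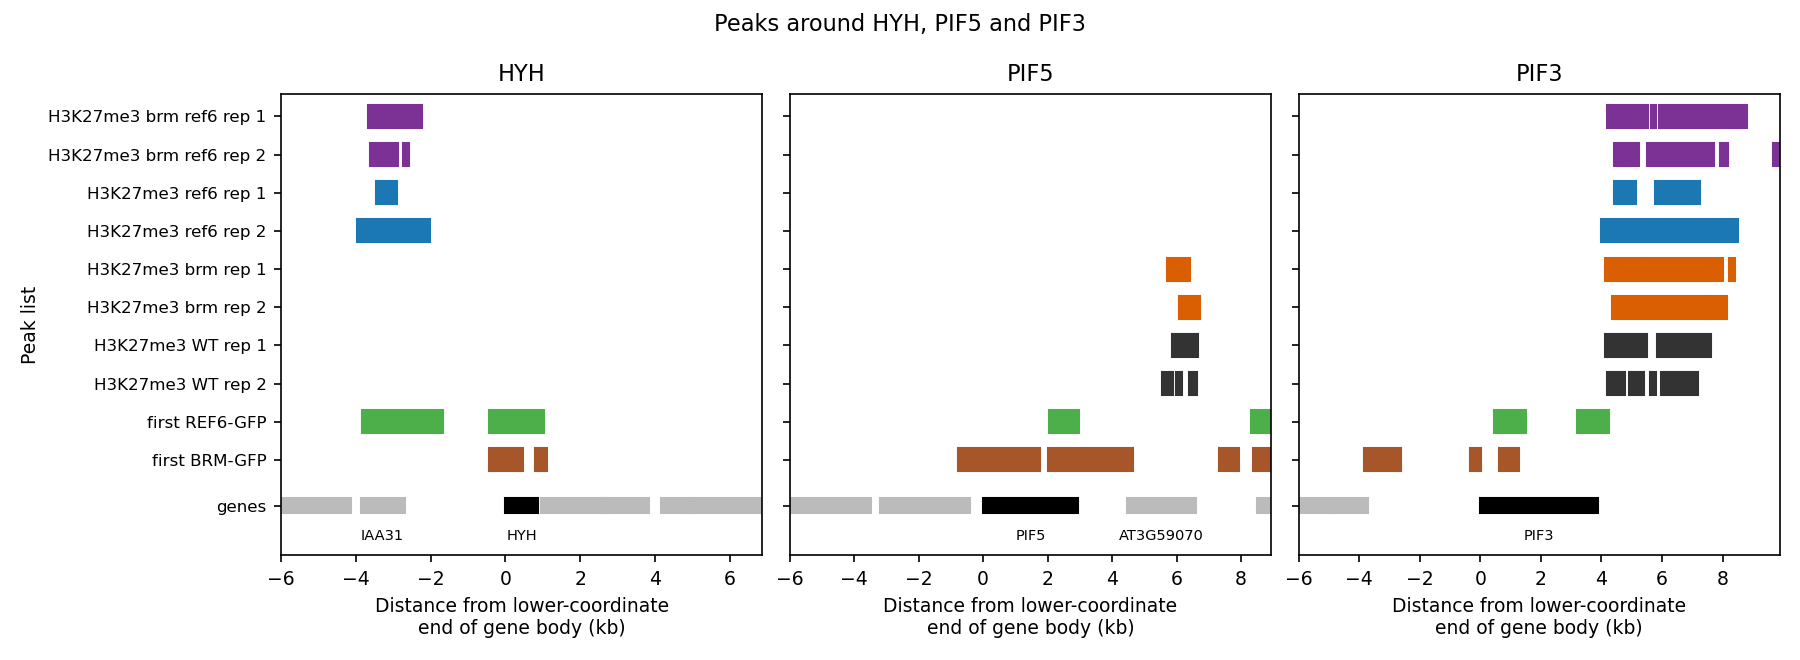
Peaks within 6 kb of HYH, PIF5 and PIF3, with distance in kb from the lower-coordinate end of the gene body on the x axis and 1 row per peak list (H3K27me3 in brm ref6, ref6, brm and WT, then the first REF6-GFP and BRM-GFP lists). Grey bars are other genes; H3K27me3 appears over IAA31 beside HYH in brm ref6 and ref6, over AT3G59070 beside PIF5 in brm and WT, and beside PIF3 in all 8 lists.

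At PIF4 the nearest H3K27me3 peak was also farther away in both genotypes with the ref6 mutation, at 13435 and 7529 bp in brm ref6 and 13365 and 13197 bp in ref6, against 3565 and 5797 bp in brm and 3966 and 3982 bp in WT. In WT these nearest peaks were over NAC042, with scores of 53.4 and 93.3, and further WT peaks over it scored 77.1 to 137. NAC042 was covered to 0% in both brm ref6 and both ref6 libraries, 18.0% and 0% in brm, and 20.7% and 36.1% in WT. COP1 had a peak 2021 and 2135 bp away in brm and 2135 bp away in WT replicate 2, with scores of 54.7 to 77.8, and otherwise none within 18 kb. None of these peaks reached PIF4 or COP1. At PIF1 the nearest peak lay 1625 and 1739 bp away in brm ref6, 3813 and 1153 bp in ref6, 1374 and 1548 bp in brm, and 1780 and 1811 bp in WT. Coverage of PIF1 plus 3000 bp on either side was 6.57 ± 5.7% in brm ref6, 5.75 ± 8.13% in ref6, 12.2 ± 1.63% in brm and 3.5 ± 1.87% in WT (mean ± SD, n = 2 each). The brm and WT values of PIF1 overlapped in neither measure, and the brm ref6 distances did not overlap WT either (exact two-sided permutation p = 0.333 for each). Its neighbour AT2G20170 was covered to 29.9% and 36.4% in brm, against 12.9% and 6.16% in WT. Coverage with 3000 bp on either side also did not overlap between brm and WT at PHYB, COP1 and PIF3. The brm lists covered more of the genome, at 10.886 and 10.257 Mb, against 7.813 and 6.987 Mb in WT. The part of this in the brm values was not tested. Over all 8 libraries the distances ranged over 2273 to 2701 bp at PHYA, 1235 to 2802 bp at PHYB, 7496 to 7971 bp at PIF7 and 15479 to 16826 bp at HY5. Those of PIF7 did not overlap WT (mean 7962 bp) in brm ref6 (7607 bp) or brm (7693 bp). Those of HY5 did not overlap WT (15630.5 bp) in brm ref6 (16056 bp) or ref6 (16477 bp). The exact two-sided permutation p was 0.333 for each, the smallest that 2 against 2 libraries can give. The share of all loci with such non-overlapping distances or coverages was not computed, so they are not read as genotype differences. By library, 5 and 5 of the 10 genes had a peak within 3000 bp in brm ref6, 4 and 5 in ref6, 6 and 5 in brm, and 5 and 6 in WT. The share of all loci with such a peak in each library was not computed either, so these counts are description only.

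**Figure D5:**
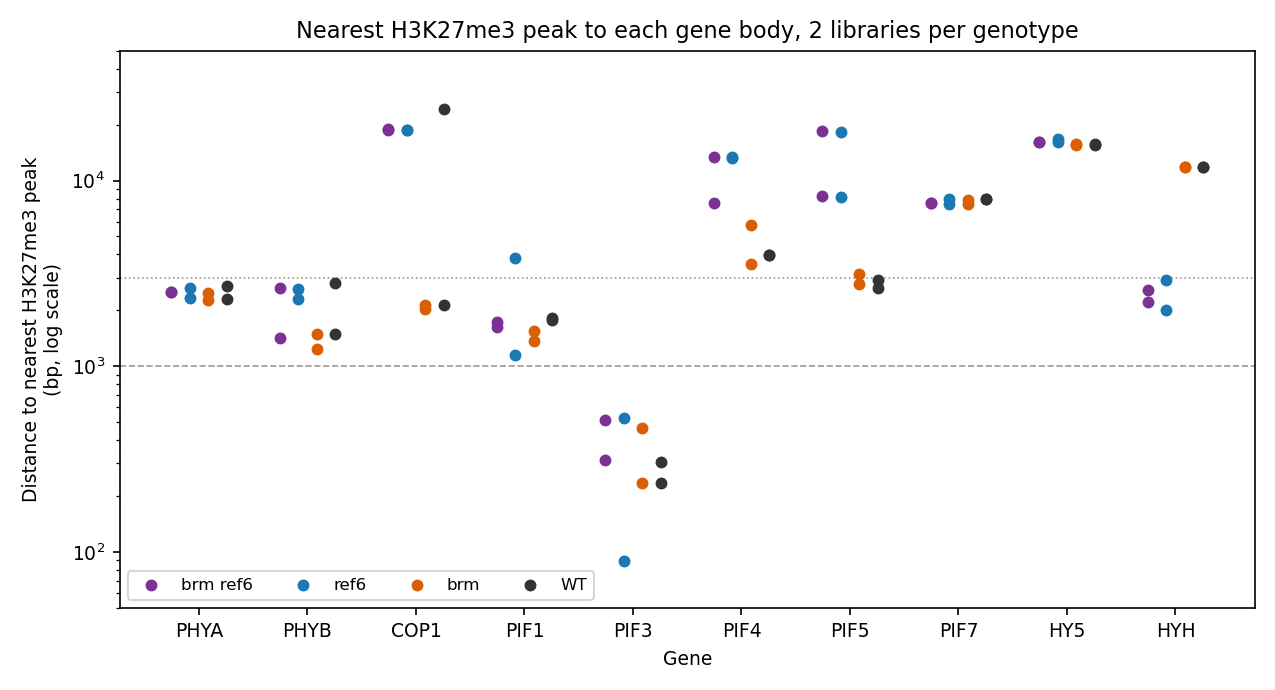
Distance in bp (log scale) from each gene body to the nearest H3K27me3 peak, 1 point per library and 2 per genotype, with brm ref6, ref6, brm and WT from left to right within each gene. The dashed line is 1000 bp and the dotted line 3000 bp; PIF3 lies below the dashed line in all 8 libraries, and HYH lies below the dotted line in brm ref6 and ref6 and near 11.8 kb in brm and WT.

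A list of 40 other light-signalling genes gave the pathway around the 10. BRM-GFP peaks of the first library were at 30 of 40 and REF6-GFP peaks at 10 of 40, with 8 having both, 22 BRM-GFP alone, 2 REF6-GFP alone and 8 neither. The REF6-GFP share was thus close to the 25.4% of all loci, whereas it was 8 of 10 for the genes described above. The difference was not tested, since both lists were chosen with results known. The 6 with the highest lower score of the 2 lists were ATHB2 (BRM-GFP 1009.6, REF6-GFP 1608), a shade-induced homeobox gene, the B-box factor gene BBX24 (471 and 539.5), the blue-light receptor gene PHOT2 (356 and 788), the UV-B receptor gene UVR8 (317 and 3100), its repressor RUP2 (171 and 268) and PKS1 (151 and 214), whose product binds phytochrome.

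In the later lists, BRM-GFP peaks were at 3 and 5 of the 40 genes in ref6 and at 4 in wild type. REF6-GFP peaks in all 4 later lists were at 2 of 40 genes, PHOT2 and PAR2, and no gene gained or lost REF6-GFP in brm. BRM-GFP peaks in all 3 later lists were at 3 of 40, PHOT2, PAR2 and ATHB2, and HEC1 lost a BRM-GFP peak in ref6 (score 67.8 in wild type). ATHB2 had the same presence in the 9 GFP lists as PIF5 and PIF7, a pattern held by 72 loci. CHS, the chalcone synthase gene, matched PIF3 and PIF4, a pattern held by 399 loci, and no gene of the list matched PHYA or HY5.

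H3K27me3 touched 11 of the 40 bodies in at least 1 library, near the background of 23.6% of all loci and 26.9% of protein-coding loci. No peak of the mark touched any of the 10 genes, and the difference between the lists was not tested. HFR1, whose bHLH product binds PIFs, and HEC2 were marked in both WT libraries (7.79% of all loci) and were marked in every mutant library. YUC8, an auxin synthesis gene and PIF target, met the definition of a gain in ref6 (coverage 50.7% and 70.0% in ref6, against 42.6% and 22.0% in WT). ELIP2, which encodes a light-stress protein of the chloroplast, met it in brm (59.5% and 54.9% in brm, against 20.2% and 0% in WT). Part of the body was covered in both WT libraries at YUC8 and in 1 at ELIP2, so both calls turn on the 50% bound.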

How the data were processed

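ChIP-seq peak lists of 17 libraries were used, and 10 input samples were left aside. Reads were aligned to TAIR10 with Bowtie2 2.2.5 and peaks called with MACS 1.4, per the submitters' processing notes; which control was used and with which options is not given in the sources used here. Each deposited list holds positions and the authors' score (−10 log10 p, minimum 50). No list carries read depth, so precision cannot be stated from counts. Scores of different lists are not on one scale. Where they are printed side by side, each describes its own list, and differences between them were not tested. The genes named as top-scoring with both proteins were ordered by the lower of such scores, which is a rule for naming only.

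Genes came from the supplied RefSeq table of TAIR10.1 (37899 nuclear loci), which gives no strand. Peaks matched genes best without a shift on 5 of 5 chromosomes (64.9% to 68.2%, against 46.7% to 50.8% at 1000 bp). Coordinates are those of the peaks, counted from 1. Sequences are not shown, since none was used.

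Presence, marking at 50% coverage, and gains or losses over libraries were called as defined in the text with Python 3.11.15, numpy 2.4.6, pandas 2.3.3 and scipy 1.17.1, and the calls were tested on simulated data. Single values were compared by exact two-sided permutation over libraries. The members and lists were chosen with earlier results of these data known. All 10 members are named. Of the 40 other genes, those named were called in a mutant comparison, marked in both WT libraries, among the 6 top-scoring with both proteins, or matched a member's 9-list pattern, and PHOT2 and PAR2 were added after their values were seen. Alternatives were other windows, overlaps, scores and coverage bounds, the replicate block, and leaving out each library.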

Additional observations from a re-analysis of the deposited data

How the results depend on the processing

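The first-library counts of 10, 8 and 8 genes held with the gene body alone, 3000 bp or 50% of the peak, and became 9, 6 and 6 with scores of at least 100, without PIF1 in either list and without PIF5 in the REF6-GFP list. Leaving out 1 library gave 0 to 2 gains of REF6-GFP in brm (PIF3 and PIF4, without brm REF6-GFP replicate 2) and 0 to 1 loss (HY5, without REF6-GFP replicate 2). With 3000 bp, PHYA and HYH had REF6-GFP in all 4 lists (2 genes), PIF4 gained BRM-GFP in ref6 (1) and PHYA and HYH lost it (2); with scores of at least 100, 0 genes had BRM-GFP in all 3 lists, and the 1 loss was PIF7 in place of PHYA. Any H3K27me3 peak within 3000 bp, an alternative chosen after seeing the data, gave 1 gain (HYH) and 1 loss (PIF5) in ref6, and 1 gain (HYH) and 1 loss (PIF5) in brm ref6. The cause was not tested beyond these constructions. Among all alternatives tried for these counts, 109 values stayed within 1.5 times and 10 moved. Most of the 109 were counts of 0 that stayed at 0, and an equal count of different genes was also scored as unchanged. With 0% body coverage, stricter bounds or scores, or leaving out a library, could not change the H3K27me3 counts. The tally is therefore no measure of robustness.

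Replicate numbers gave correlations of deviations of 0.405 (REF6-GFP), -0.186 (ref6), 0.124 (brm) and 0.134 (brm ref6) over 2 pairs each. The replicate block left the counts at 0 by construction, as did the crossed pairing for ref6, which was added after seeing the data. Unknown read depth limits every absence.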
